A study of Homo sapiens with 5 samples.

Results

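TEAD4 peaks at CpG-poor coding promoters were the peaks of LX-2 cells whose summit lay within 1 kb of an annotated transcription start site (TSS) of a protein-coding gene, where the nearest such TSS had an observed to expected CpG ratio of at most 0.6 within 500 bp either side. Of 21113 TEAD4 peaks, 1263 (5.98%) met this rule. They lay at 1038 genes and in 1172 regions once overlapping peaks were merged. The other 1454 promoter peaks had a nearest coding TSS above 0.6 and are called CpG-rich promoter peaks, and 18396 peaks lay over 1 kb from every coding TSS. LX-2 is an established line of human hepatic stellate cells used as a model of liver myofibroblasts. ChIP-seq with an anti-TEAD4 antibody was made in 3 replicates of cells given DMSO, the solvent, together with 2 input samples, and no treated cells entered this series. The authors left out replicate 2 and deposited one list for replicates 1 and 3 together, so each peak has a single value, no spread between replicates can be given, and the depth per sample is unknown.

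TEAD4 is a DNA-binding factor of the Hippo pathway that brings the coactivators YAP and TAZ to genes of cell adhesion, the cytoskeleton and the matrix. It recognises a short motif and often binds enhancers beside AP-1, the dimer of FOS and JUN proteins. Coding promoters fall in a CpG-rich kind, frequent at broadly active genes, and a CpG-poor kind, more frequent at tissue-restricted and inducible genes. Many genes also have alternative start sites inside the gene body that are CpG-poor although the main promoter is a CpG island.

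Sequences at these promoters are shown for 9 peaks with a TEAD motif within 30 bp of the summit. They were picked because they include the strongest of them, those with an AP-1 motif in the same window and contractile, integrin and cytokine genes. Which bases TEAD4 contacts was not tested. Each sequence of 57 bases is from hg38 and is read 5′ to 3′ on the strand that carries ACATTCC. Capitals mark this TEAD motif and, where present, the AP-1 motif TGACTCA or TGAGTCA.
BCL2L1, chr20:31720303-31720359, plus strand: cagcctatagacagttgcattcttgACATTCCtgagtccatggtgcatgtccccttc
TRIP6, chr7:100867293-100867349, minus strand: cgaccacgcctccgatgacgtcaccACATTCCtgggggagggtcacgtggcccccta
EHD1, chr11:64855108-64855164, plus strand: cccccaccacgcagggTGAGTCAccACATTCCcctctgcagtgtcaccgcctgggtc
TGFBI, chr5:136053823-136053879, plus strand: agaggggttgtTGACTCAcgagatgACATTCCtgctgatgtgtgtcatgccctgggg
KRTAP2-3, chr17:41060430-41060486, minus strand: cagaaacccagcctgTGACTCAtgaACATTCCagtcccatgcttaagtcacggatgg
MYH9, chr22:36329594-36329650, plus strand: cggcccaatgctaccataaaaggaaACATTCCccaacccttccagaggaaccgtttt
LMOD1, chr1:201946643-201946699, plus strand: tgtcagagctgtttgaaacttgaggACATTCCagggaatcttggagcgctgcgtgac
ITGA3, chr17:50062598-50062654, plus strand: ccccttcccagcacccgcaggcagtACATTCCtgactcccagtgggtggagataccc
CCL2, chr17:34254873-34254929, minus strand: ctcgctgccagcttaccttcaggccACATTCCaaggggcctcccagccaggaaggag
The TRIP6 and LMOD1 motifs lay before the annotated main start of the gene, by 66 and 123 bp. The CCL2 motif lay exactly at the summit of its peak, 373 bp before the nearest TSS. The BCL2L1 and MYH9 motifs lay in introns of the gene, before alternative start sites.

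Whole promoters are shown for TGFB2, which carries both a TEAD motif and a TATA box, and for CXCL8, which carries an AP-1 motif and a TATA box. They run from 250 bases before to 50 after the RefSeq start (GRCh38.p14), on the strand of the gene, which is plus for both.
TGFB2, chr1:218345086-218345385: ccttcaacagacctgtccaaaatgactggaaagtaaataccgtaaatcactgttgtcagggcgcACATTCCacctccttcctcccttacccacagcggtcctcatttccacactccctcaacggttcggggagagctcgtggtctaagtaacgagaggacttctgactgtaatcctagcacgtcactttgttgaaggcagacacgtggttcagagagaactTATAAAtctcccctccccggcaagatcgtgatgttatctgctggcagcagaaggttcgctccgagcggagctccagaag
CXCL8, chr4:73740319-73740618: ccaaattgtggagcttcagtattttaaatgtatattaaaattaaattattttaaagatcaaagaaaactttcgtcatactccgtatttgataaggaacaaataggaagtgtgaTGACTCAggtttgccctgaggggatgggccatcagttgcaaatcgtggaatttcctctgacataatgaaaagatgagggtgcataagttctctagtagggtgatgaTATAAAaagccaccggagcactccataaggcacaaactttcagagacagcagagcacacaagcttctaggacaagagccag
Capitals mark the TEAD motif, the AP-1 motif and the TATA box, here TATAAA. Among 35116 RefSeq promoter windows of this length, 3.46% held the TEAD motif on either strand, 4.95% held the AP-1 motif and 7.33% held TATAAA on the strand of the gene, at any position of the window.

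The CpG ratio divided the promoter peaks into a low and a high group with fewer values between. The members had a median ratio of 0.260 (lower quartile 0.181, upper quartile 0.377), and the CpG-rich promoter peaks had a median of 0.798. The 390 peaks between 0.2 and 0.3 formed the fullest bin of the low group, 129 peaks fell between 0.4 and 0.5, and 476 between 0.8 and 0.9. These values chose the members and are a description. The last members inside the limit were the peaks of NEXN (0.598), RASL10B (0.599) and LYPLA2 (0.599), with signal values of 242.7, 64.1 and 51.8. The first promoter peaks outside were those of ERBB2 (0.6001), FAM111A (0.601) and STX12 (0.602), with signal values of 147.7, 79.9 and 47.1. The signal value is the strength that the peak caller gave each peak, with no unit stated. In distance, the last 3 members inside lay 996 to 997 bp from the TSS, and the 3 nearest peaks beyond the limit lay 1001 to 1002 bp from a CpG-poor TSS.

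**Figure D1:**
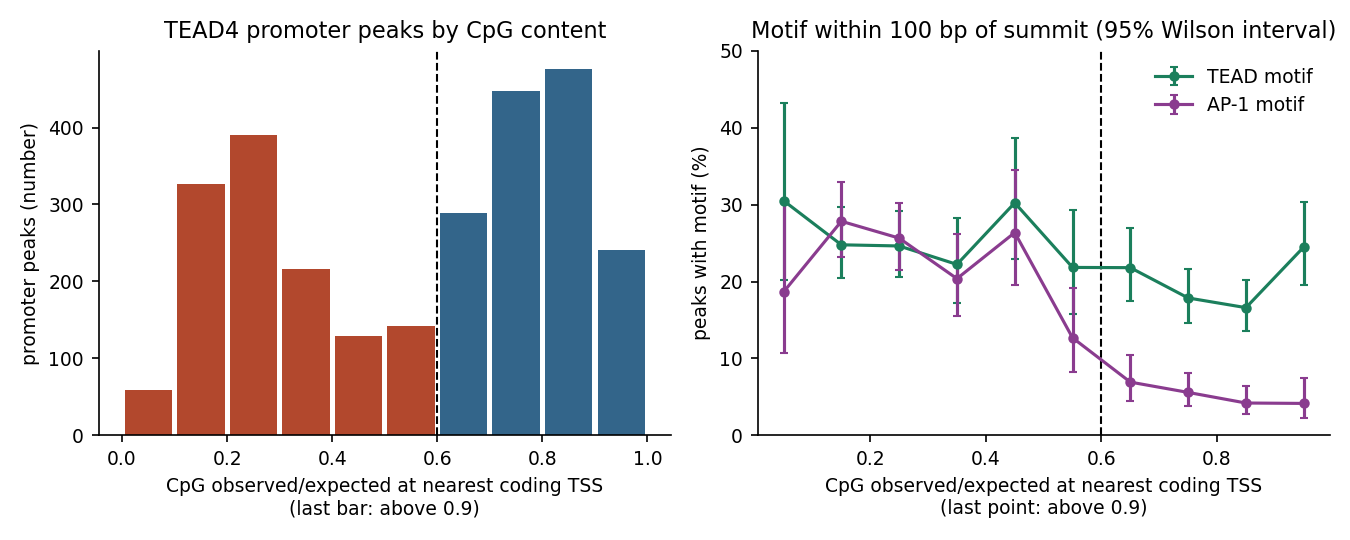
Left, number of TEAD4 promoter peaks (y axis) in bins of the observed to expected CpG ratio at the nearest coding TSS (x axis), members in red and CpG-rich promoter peaks in blue, with the limit of 0.6 dashed. Right, share of these peaks (%) with a TEAD motif (green) or an AP-1 motif (purple) within 100 bp of the summit, with 95% Wilson intervals; the AP-1 share was 26.4% between 0.4 and 0.5, 12.7% between 0.5 and 0.6 and 6.92% between 0.6 and 0.7.

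For most of these peaks the nearest annotated start was not the main one of the gene, as for CpG-poor start sites in general. For 116 of the 1263 members (9.18%, 95% Wilson interval 7.71% to 10.9%), the nearest TSS was that of the Ensembl canonical transcript, which is the one chosen to represent the gene, against 491 of 1454 CpG-rich promoter peaks (33.8%). The odds ratio was 0.199 (95% interval 0.158 to 0.248, adjusted exact p = 1.11e-55, two-sided Fisher's exact test with Benjamini-Hochberg adjustment over 21 tests, as for each test that follows). The annotation alone has the same imbalance: 8.55% of all 79044 CpG-poor coding TSSs are canonical, against 19.7% of the 67400 CpG-rich ones. The odds ratio thus holds this imbalance of the annotation and cannot be read as a trait of TEAD4 binding. Read against the annotation, the members were near the share of CpG-poor TSSs in general, and the CpG-rich promoter peaks lay above theirs. Since a start site may be annotated a few bases away from the canonical one, the distance was counted as well. The nearest TSS lay within 1000 bp of the canonical TSS for 23.0% of members and 87.7% of CpG-rich promoter peaks, beside 25.8% and 90.4% of all TSSs of each kind. By this distance both groups lay slightly below the share of their kind, so the higher share of CpG-rich promoter peaks did not hold.

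Of the 1147 members at another than the canonical TSS, 879 (76.6%) lay downstream of it, with a median distance of 20.3 kb between the TSSs. For 798 of the 1147 (69.6%) the canonical TSS was itself CpG-rich. Both TSSs lay over 1 kb apart for 972 members at 797 genes. Of these genes, 113 (14.2%) had a TEAD4 summit within 1 kb of the canonical TSS. For 14 of the 113 genes the summit of such a member itself lay there. Among all 20046 canonical coding TSSs the share was 7.80%, with 9.94% of CpG-rich and 3.61% of CpG-poor ones. The comparison was not matched for the CpG content of the canonical TSS, and the difference was not tested. The summit fell in an intron of a coding gene for 772 members (61.1%), in an exon for 329 (26.0%) and outside coding genes for 162 (12.8%). For CpG-rich promoter peaks these shares were 34.3%, 29.1% and 36.6%. A protein-coding transcript started at the nearest TSS of 630 members (49.9%), the remainder being start sites of transcripts that GENCODE does not class as coding. The name promoter thus means an annotated start, and whether these starts are used in LX-2 cells was not tested, as the list holds no expression or chromatin mark.

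The summits of the members were spread more widely around the TSS than those of CpG-rich promoter peaks. The median distance was 245 bp (quartiles 86 and 566 bp), against 143 bp (42 and 380 bp). The summit lay within 100 bp of the TSS for 28.2% of members and 42.8% of CpG-rich promoter peaks. It lay upstream for 770 members (61.0%) and for 64.9% of CpG-rich promoter peaks (odds ratio 0.846, 95% interval 0.722 to 0.993, adjusted exact p = 0.0502), a difference that missed the threshold of 0.05. This direction turned to 1.17 (adjusted exact p = 0.376) with canonical TSSs alone, and it passed the threshold with a distance limit of 500 bp (0.743, adjusted exact p = 0.00293) or 2.5 kb (0.803, adjusted exact p = 0.00109).

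CpG-poor canonical promoters were bound less often than CpG-rich ones. A summit lay within 1 kb of 244 of 6760 CpG-poor canonical TSSs (3.61%) and of 1320 of 13286 CpG-rich ones (9.94%), an odds ratio of 0.340 (95% interval 0.294 to 0.391, adjusted exact p = 5.41e-62). With a CpG limit of 0.75 in place of 0.6 the ratio was 0.590 (0.531 to 0.656). Among other start sites the shares were 3.35% of 72284 CpG-poor and 11.1% of 54114 CpG-rich TSSs, counting each position of a gene. Within the CpG-poor canonical promoters, the TEAD motif was found between 250 bases before and 50 after the TSS in 33 of 244 bound promoters (13.5%) and in 233 of 6516 unbound ones (3.58%), an odds ratio of 4.22 (95% interval 2.76 to 6.27, adjusted exact p = 6.69e-10). A TATA box, TATAAA starting 40 to 20 bases before the TSS, was present in 15 bound (6.15%) and 507 unbound promoters (7.78%), an odds ratio of 0.776 whose interval ran from 0.424 to 1.32 (adjusted exact p = 0.414). With the CpG limit of 0.75 the TATA box was less frequent in bound promoters (0.544, adjusted exact p = 0.0078).

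Signal values at CpG-poor promoters were higher than at CpG-rich promoters, and their difference from peaks far from coding TSSs did not pass the test. The median was 69.9 for members (quartiles 46.3 and 116.3, range 6.64 to 824.1), 54.4 for CpG-rich promoter peaks and 69.3 for peaks over 1 kb from coding TSSs. Of the members, 650 (51.5%) lay above the median of the whole list, against 35.2% of CpG-rich promoter peaks (odds ratio 1.95, 95% interval 1.67 to 2.28, adjusted exact p = 4.31e-17) and 51.1% of the distant peaks (1.02, 0.905 to 1.14, adjusted exact p = 0.794). IDR measures how well peak ranks repeat between replicates, here replicates 1 and 3, the pair kept for its concordance. The highest IDR score was held by 76.0% of members and 67.0% of CpG-rich promoter peaks (odds ratio 1.56, adjusted exact p = 4.12e-07). Members at canonical TSSs had a median signal value of 70.6 and those at other TSSs one of 69.3. Another TEAD4 summit outside the same merged region lay within 10 kb for 504 members (39.9%) and for 26.9% of CpG-rich promoter peaks (odds ratio 1.81, 95% interval 1.53 to 2.13, adjusted exact p = 1.87e-12). In 37 members (2.93%) the q-value of the peak caller was above 0.05, as for 3.19% of all peaks.

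The TEAD motif was centred on the summits at CpG-poor promoters. ACATTCC lay within 100 bp of the summit, on either strand, in 313 members (24.8%, 95% interval 22.5% to 27.2%), beside 23.0% of all 21113 peaks. It was found in 75 of 2526 windows (2.97%) of the same width shifted by 2 kb to either side of the same summits, an odds ratio of 10.8 (95% interval 8.24 to 14.2, adjusted exact p = 2.07e-90). CpG-rich promoter peaks held it in 19.3% (odds ratio 1.38, 1.14 to 1.66, adjusted exact p = 0.00118) and the distant peaks in 23.1% (1.10, 0.956 to 1.25, adjusted exact p = 0.209). Among the 313, the motif centre lay within 20 bp of the summit in 208 (66.5%) and within 50 bp in 286 (91.4%). The motif read as ACATTCC on the strand of the gene in 133 (42.5%, 37.1% to 48.0%), and it lay upstream of the TSS in 195 (62.3%). At least 2 TEAD motifs were found in 17 members. The difference from CpG-rich promoter peaks missed the threshold with canonical TSSs alone (1.13, adjusted exact p = 0.517) and among peaks above the median signal value (1.25, adjusted exact p = 0.133), and against the flanks the ratio lay between 5.59 with windows of 250 bp and 21.7 with windows of 50 bp.

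**Figure D2:**
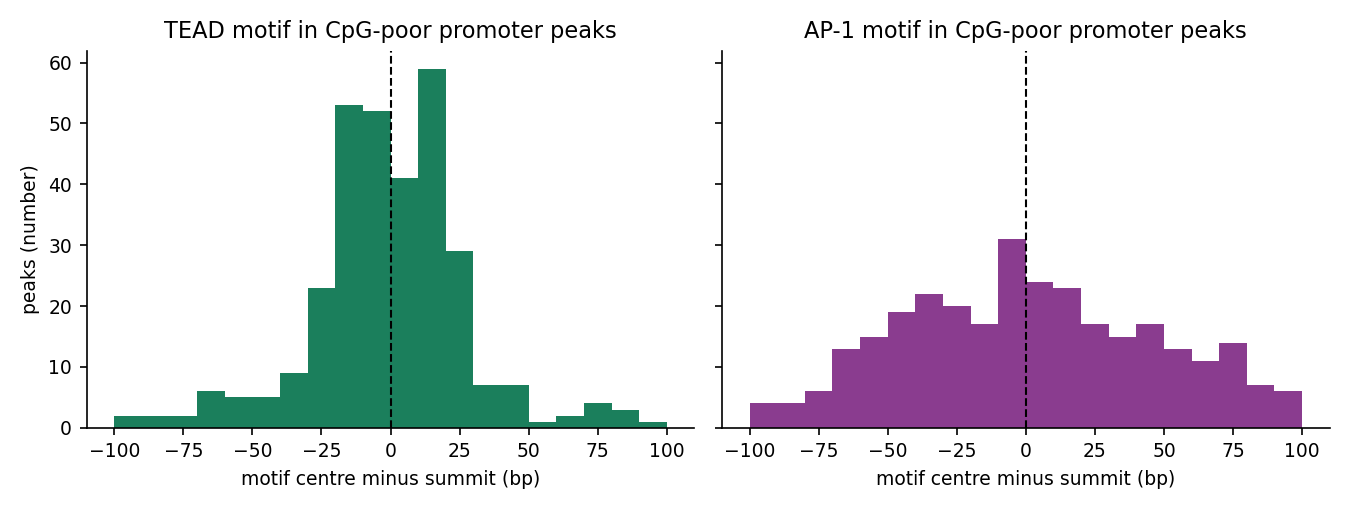
Number of members (y axis) by the distance in bp from the summit to the centre of the nearest TEAD motif (left, 313 members) or AP-1 motif (right, 298 members), in bins of 10 bp, with the summit dashed. TEAD motifs pile up at the summit, with 66.5% within 20 bp, while AP-1 motifs are spread more widely, with 32.6% within 20 bp.

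The AP-1 motif was more frequent at CpG-poor than at CpG-rich promoters, with an odds ratio whose interval did not overlap that of the TEAD motif. TGACTCA or TGAGTCA lay within 100 bp of the summit in 298 members (23.6%, 95% interval 21.3% to 26.0%), beside 25.4% of all peaks, and in 75 CpG-rich promoter peaks (5.16%), an odds ratio of 5.67 (4.33 to 7.51, adjusted exact p = 3.68e-45). The share in the flanking windows of the members was 3.68% (odds ratio 8.07, 6.30 to 10.4, adjusted exact p = 1.22e-74), and this ratio was 4.601 with canonical TSSs alone and 4.63 with windows of 250 bp. The ratio to CpG-rich promoter peaks was 4.06 with the GC content of the window in a logistic model (95% interval 2.999 to 5.48). It was 9.52 with a distance of 500 bp to the TSS, 3.49 with 2.5 kb and 2.90 with canonical TSSs alone (adjusted exact p = 1.05e-05). The distant peaks held the motif slightly more often, at 27.1% (odds ratio for members 0.830, 0.723 to 0.9497, adjusted exact p = 0.00947). This small difference missed the threshold with a CpG limit of 0.5 (0.895), among peaks above the median signal value (0.850) and among those that share the top IDR score (0.853), and with canonical TSSs alone it was 0.431 (adjusted exact p = 9.19e-07). Members at canonical TSSs held the AP-1 motif in 18 of 116 (15.5%, 10.1% to 23.2%) and members at other TSSs in 280 of 1147 (24.4%, 22.0% to 26.98%), a split that was not tested.

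The AP-1 share was higher farther from the TSS at CpG-rich promoters, whereas at CpG-poor promoters the intervals near and far from the TSS overlapped. Within 100 bp of the TSS, 23.0% of 356 members (19.0% to 27.7%) and 2.09% of 623 CpG-rich promoter peaks (1.22% to 3.54%) held an AP-1 motif. Between 500 and 1000 bp, the shares were 26.1% of 371 members (21.9% to 30.9%) and 14.7% of 273 CpG-rich promoter peaks (10.9% to 19.3%). The TEAD motif had shares of 22.5% and 24.8% in members at these distances and of 15.7% and 23.8% in CpG-rich promoter peaks. Whether the trends differ was not tested.

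The RUNX motif and the E-box were also more frequent at CpG-poor than at CpG-rich promoters, and the CArG box did not pass the test. The RUNX motif TGTGGTT, bound by the Runt family, was found in 100 members (7.92%), beside 9.53% of all peaks, and in 2.82% of CpG-rich promoter peaks (odds ratio 2.96, adjusted exact p = 4.23e-09), a ratio of 1.67 with the GC content of the window in the logistic model (95% interval 1.08 to 2.58). Distant peaks held it in 10.2% (odds ratio for members 0.759, adjusted exact p = 0.0133), a difference that missed the threshold with the GC content in the model (0.852, 95% interval 0.689 to 1.05). The E-box, searched only as CAGATG, was found in 17.0% of members, beside 16.7% of all peaks, and in 6.46% of CpG-rich promoter peaks (odds ratio 2.97, adjusted exact p = 1.42e-17). This ratio was 2.08 with the GC content in the model (95% interval 1.55 to 2.81). The flanking windows of the members held CAGATG in 13.8%, and their difference from the summits was not tested. The CArG box, the site of serum response factor, was found in 23 members (1.82%) and in 1.10% of CpG-rich promoter peaks (1.67, 0.839 to 3.39, adjusted exact p = 0.179). The members were also less rich in G and C around the summit, with a median of 48.8% against 63.2% in CpG-rich promoter peaks and 43.8% in distant peaks. Motifs written backwards were searched as controls of composition. CCTTACA was found in 1.90% of members and 1.24% of CpG-rich promoter peaks (odds ratio 1.54, adjusted exact p = 0.234), and ACTCAGT or ACTGAGT in 3.48% and 1.93% (1.84, 1.11 to 3.09, adjusted exact p = 0.0225). With the GC content in the model both ratios lay below 1, at 0.905 (95% interval 0.435 to 1.88) and 0.920 (0.522 to 1.62).

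Within the members, signal values were highest where both motifs were found, a pattern that was not tested. Both the TEAD and the AP-1 motif were found in 49 members (3.88%), the TEAD motif alone in 264 (20.9%), AP-1 alone in 249 (19.7%) and neither in 701 (55.5%). The median signal value was 148.5 with both, 78.5 with TEAD alone, 68.0 with AP-1 alone and 64.4 with neither. In 5 groups of members from the weakest to the strongest signal value, the TEAD share was 17.0%, 19.0%, 24.1%, 27.8% and 36.0%. The AP-1 share was 18.2% in the weakest group and 30.4% in the strongest. CpG-rich promoter peaks held both motifs in 7 of 1454 (0.481%) and distant peaks in 4.85%.

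The strongest member, with a signal value of 824.1, lay in an exon of CDH1, the gene of E-cadherin, 337 bp after an alternative start that is 85953 bp downstream of the canonical TSS. It held an AP-1 motif and no ACATTCC within 100 bp. Next came TXNRD2, a mitochondrial thioredoxin reductase (615.1), SLFN12 of the Schlafen family (613.9) and BCL2L1, an inhibitor of apoptosis (584.5). Of these, SLFN12 lay 87 bp upstream of a start 783 bp before its canonical TSS. DYNC2I2, a dynein chain of cilia (517.0), STXBP6, a SNARE-binding protein (482.3), and COL16A1, a collagen chain (481.1), all lay at starts within the gene.

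TRIP6, an adaptor of the zyxin family at focal adhesions, was the strongest member at a canonical TSS, with a signal value of 470.9. Its summit lay 72 bp upstream of the TSS, and both a TEAD and an AP-1 motif stood within 100 bp. The remaining ones of the 15 strongest were SAMD4A (466.9), MTCL1 (465.3), DIS3L (463.2), SPARC (440.6), DDX47 (436.4), SSR3 (436.3) and RAI14 (421.0). SPARC codes for a collagen-binding matrix protein, and this peak lay in an exon 154 bp after a start that is 1685 bp downstream of the canonical TSS. A weaker SPARC peak of 113.9 lay 24 bp upstream of the canonical TSS and held a TEAD motif. Among the members with both motifs, the 5 strongest were TRIP6, CCDC85C (368.4), EHD1 (354.9), TGFBI (340.4) and WSB2 (338.9). TGFBI, a matrix protein induced by TGF-beta, had its peak 89 bp upstream of an intronic start, 24955 bp downstream of the canonical TSS.

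A TATA box and a TEAD motif occurred together at KRTAP2-3, a hair keratin-associated protein (signal value 326.3), at TGFB2, a TGF-beta ligand (74.2), and at ARPC5, a subunit of the actin-nucleating Arp2/3 complex (40.6). These peaks of KRTAP2-3 and TGFB2 lay at canonical TSSs, 356 and 163 bp upstream. A further KRTAP2-3 peak of 343.0 lay 689 bp after the same TSS, without ACATTCC within 100 bp. In all, 9 of the 116 members at canonical TSSs (7.76%) and 7 of the 1147 at other TSSs (0.610%) had a TATA box at that TSS.

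Of all coding genes, 1038 had a member peak, which is 5.18% of 20046 genes and 6.21% of the 16721 genes with at least 1 CpG-poor TSS. Genes with more annotated starts can be counted at more places: member genes had a median of 11 TSS positions and all coding genes 5. The gene lists that follow are given as counts beside 6.21%, with no test, and the part of the number of starts in these counts was not tested. For comparison, a CpG-rich promoter peak was found at 6.60% of all coding genes, 3.85% of integrins and 2.27% of collagens.

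Contractile genes had the most members among the lists of myofibroblast functions. Of 27 such genes, all with a CpG-poor TSS, 6 had a CpG-rich promoter peak (22.2%), and the median number of TSS positions was 11. A member peak was found at 10 of the 27 (37.0%). The strongest was MYH9, the heavy chain of non-muscle myosin, at 262.6, where the summit lay upstream of an intronic start and a TEAD motif and a CArG box stood within 100 bp. LMOD1, a leiomodin of smooth muscle, had a peak of 249.7 with a TEAD motif, 113 bp upstream of its canonical TSS. CALD1, which codes for caldesmon, had 2 peaks. One of 237.4 lay 83 bp upstream of a start 9 bp before the canonical TSS, and one of 151.0 lay at a start 140932 bp downstream. TAGLN, which codes for transgelin, had a peak of 234.2 at 206 bp upstream of its canonical TSS, with a CArG box and no ACATTCC. MYL9, a myosin light chain, had one of 87.2, also with a CArG box. ACTN1, PDLIM7, PDLIM5, TPM1 and TPM4 had their strongest peaks between 52.4 and 123.4.

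Integrins, the receptors of matrix proteins, had member peaks at 6 of 25 genes with a CpG-poor TSS (24.0%). ITGA3 was the strongest at 221.8, with the TEAD motif shown above, and ITGB2 and ITGB5 followed at 130.0 and 126.8. ITGB1 had 2 peaks of 49.2 and 34.9, at starts 5053 and 47562 bp before the canonical TSS, and ITGA1 and ITGA5 had peaks of 41.8 and 37.8. ITGA5 was the one of these at the canonical TSS, 68 bp upstream, and held an AP-1 motif.

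Collagens were all CpG-poor at some start (44 of 44), and 5 had a member peak (11.4%). Beside COL16A1 these were COL5A2 at 70.2, COL1A2 at 50.9, COL11A1 at 46.4 and COL7A1 at 32.4. The peaks of COL1A2 and COL5A2, chains of the fibrillar collagens I and V, lay 256 and 42 bp upstream of the canonical TSS, and neither held ACATTCC or an AP-1 motif within 100 bp. Enzymes of the matrix and their inhibitors had 9 of 77 (11.7%). ADAMTSL1, which the list holds although the protein lacks a protease domain, stood highest at 336.9, at a start 431338 bp downstream of its canonical TSS. Then came ADAMTS12 (199.1), ADAMTS6 (189.1), PLAT (146.2) and PLOD2, a lysyl hydroxylase of collagen (124.7). MMP19, PLAU and LOX had their strongest peaks at 83.2, 58.2 and 36.1.

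Of the 22 coding genes of the YAP signature, 6 had a CpG-rich promoter peak (27.3%). In the same signature, 16 genes had a CpG-poor TSS and 4 had a member peak (25%). ANKRD1, a common readout of YAP, had 2 peaks of 192.2 and 71.9 at 262 and 461 bp upstream of its canonical TSS, and neither window held the full ACATTCC. AXL, a receptor tyrosine kinase (77.8), TGFB2 and ASAP1 (41.8) were the others. TEAD factors and cofactors gave 1 of 8: WWTR1, which codes for TAZ, had peaks of 71.0 and 59.8 at starts 78689 bp before and 81773 bp after its canonical TSS. Of the AP-1 subunits, FOSB (46.9) and FOSL2 (34.3) had a member peak, out of 7 with a CpG-poor TSS.

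Chemokines and interleukins gave 8 of 72 (11.1%). CCL2, which attracts monocytes, was the strongest at 153.2, and CXCL8, which attracts neutrophils, had a peak of 67.0 at 22 bp upstream of a start 50 bp before its canonical TSS, with the AP-1 motif shown above. IL1B, IL4, IL16, IL17B, CCL26 and IL11 lay between 51.3 and 78.7. Growth factors gave 3 of 43 (6.98%), near the share of all genes: FGF1 with peaks of 207.0 and 92.9, TGFB2 and BMP1 (69.2). BMP1 codes for a protease rather than a growth factor, and it is counted here because the list held it.

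**Figure D3:**
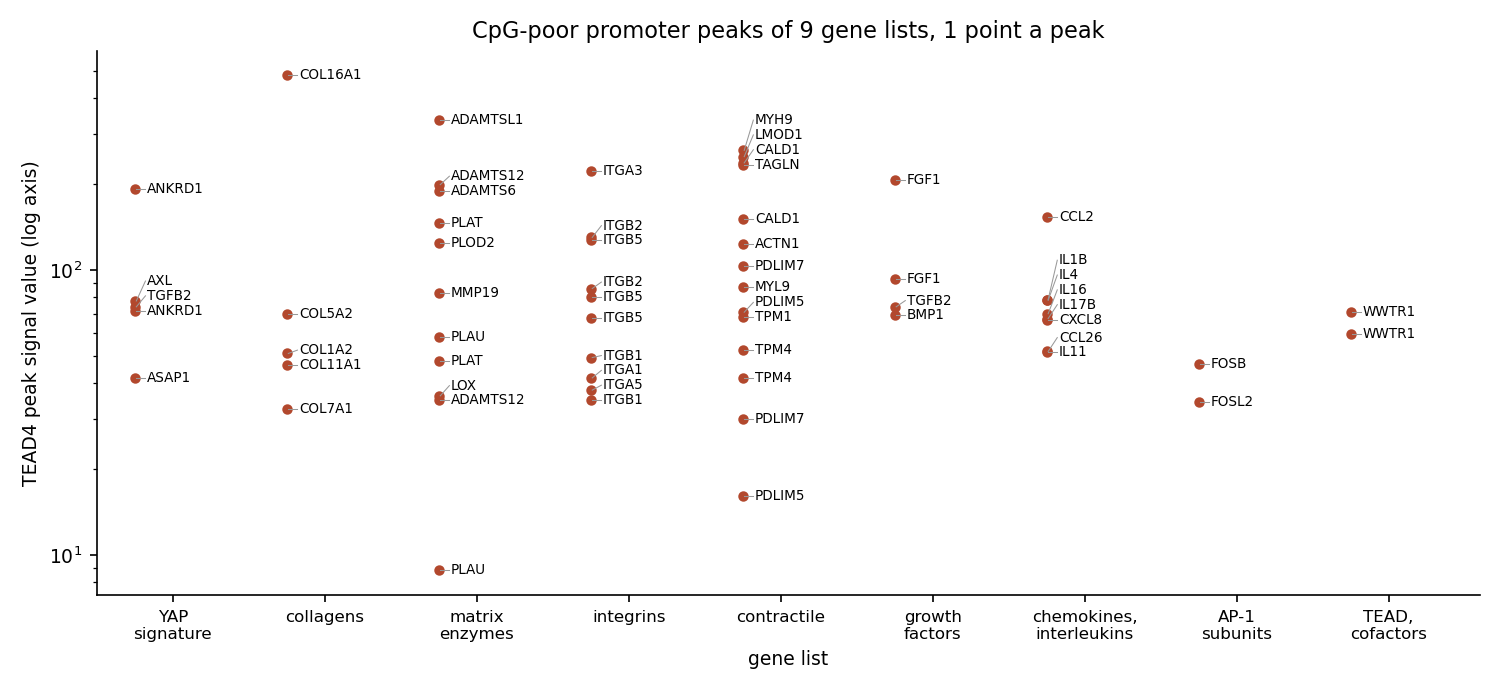
TEAD4 signal value (y axis, log scale) of member peaks at genes of 9 lists (x axis), 1 point a peak, with gene symbols. Contractile genes hold the largest number of points, 4 of them between 234.2 and 262.6, and the highest point is COL16A1 at 481.1.

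Among further lists, S100 proteins and annexins had a member peak at 9 of 31 genes (29.0%), solute carriers at 23 of 300 (7.67%) and keratins at 4 of 55 (7.27%). Olfactory receptors, which have a median of 1 TSS position, had one at 3 of 398 (0.754%). Markers of hepatocytes (0 of 23), immune cells (0 of 12) and endothelial cells (0 of 8) had none. The Wilson intervals of these shares reached up to 14.3%, 24.25% and 32.4%. They include the 6.21% of all genes, so these short lists cannot show a lower share. Among biliary markers KRT7 had a peak (121.9), out of 3, and among markers of quiescent stellate cells PPARG (96.2) and RGS5 (99.3) did, out of 7, these names being given after their values were seen.

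The study compiled a list of genes assigned to regions that lose the active mark H3K27ac in LX-2 cells treated with an inhibitor of O-GlcNAc transferase, made from other ChIP-seq samples of the same cell line. Of its 1742 names, 1200 matched coding genes, 999 of these had a CpG-poor TSS and 223 had a member peak (22.3%, beside 6.21% of all). Its genes had a median of 8 TSS positions, and 163 of the 1200 had a CpG-rich promoter peak (13.6%, beside 6.60% of all). The list holds only genes assigned to a region with H3K27ac in these cells, whereas the shares of all genes carry no such condition. No set matched for H3K27ac was compared. Among the genes most upregulated by the inhibitor in LX-2 cells, 22 of 371 had a member peak (5.93%), a share near that of all genes. The liver fibrosis matrisome had 10 of 69 (14.5%) and the liver fibrosis list 9 of 55 (16.4%). A CpG-rich promoter peak was found at 2 of 71 genes (2.82%) of the former and 11 of 61 (18.0%) of the latter.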

How the data were processed

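The deposited file is one list of TEAD4 peaks in hg38. The authors mapped the reads with Chromap, compared replicates with the ENCODE IDR pipeline and called peaks for replicates 1 and 3 together. The peak caller is not given in the sources used here. The deposited columns used were the score (the scaled IDR), the signal value and the −log10 of the q-value that the authors' caller gave each peak, and the summit. What each column holds was inferred from its layout and values. Reads of single samples were not analysed here.

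Summits were compared with TSSs of GENCODE release 44 on the hg38 sequence. Motifs were searched on both strands, 100 bp either side of the summit. Shares have Wilson intervals, which cover counting error over peaks, and were compared by Fisher's exact test. Peaks are not replicates and neighbours share sequence, so p-values compare peaks of one list. Genes named were the 15 strongest members, members of 9 lists, the 5 strongest with both motifs, and those with a TATA box and a TEAD motif. 1 gene of these lists is counted but not reported or plotted here. The members, lists and tests were chosen with earlier results of these data known. Symbols in lists compiled by the study were matched to GENCODE names, or through RefSeq synonyms. Alternatives changed the CpG limit, the distance, the TSS annotation, the peak set, the motif and its window, and added GC content in a logistic model. The code was tested on simulated data. Python 3.11.15, scipy 1.17.1 and statsmodels 0.14.6 were used.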

Additional observations from a re-analysis of the deposited data

How the results depend on the processing

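Across 22 results and 160 alternatives, 141 kept the direction and the side of the threshold (or, for the number of members, stayed within 1.5 times). The members numbered 2106 with a limit of 2.5 kb, 256 with canonical TSSs alone and 650 among peaks above the median signal value. Against CpG-rich promoter peaks, the TEAD odds ratio was 1.13 with canonical TSSs and 1.25 above the median signal value, and the upstream ratio turned to 1.17 with canonical TSSs and passed the threshold with a CpG limit of 0.5 (0.830) and with distances of 500 bp (0.743) and 2.5 kb (0.803). The backwards motifs turned with the GC content in the model, to 0.905 for TEAD and 0.920 for AP-1, and the AP-1 one missed the threshold with windows of 50 bp (1.54). Against distant peaks, TEAD passed at 2.5 kb (1.13) and turned with canonical TSSs (0.905), AP-1 missed the threshold with a CpG limit of 0.5 (0.895), among peaks above the median signal value (0.850) and among those with the top IDR score (0.853), and RUNX missed it with the GC content (0.852). The TATA ratio passed with a CpG limit of 0.75 (0.544). The cause was not tested in these cases. No paired analysis was possible because both replicates are merged in the peak list, and leaving out a replicate was not possible for the same reason. A planned comparison of repeats at the summit was not run, since the genome sequence used here carries no repeat marks. The depth of the samples is unknown, so no limit from depth can be given.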

Other observations

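The members were spread unevenly over chromosomes as a share of the TEAD4 peaks there. They made up 57 of 467 peaks on chromosome 19 (12.2%), 83 of 758 on chromosome 17 (10.9%) and 24 of 232 on chromosome 22 (10.3%), and 14 of 603 on chromosome 13 (2.32%). The number of annotated starts on each chromosome was not compared.

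Most genes had a single member peak (842 of 1038), 169 had 2, 25 had 3 and 2 had 4. The last were MXRA7 (strongest signal value 313.7) and DST, which codes for the cytoskeletal linker dystonin (124.3). Their 4 peaks fell in 3 and 4 merged regions. Genes with 3 included SPARC, the LIM protein AJUBA (399.1) and the integrin ITGB5. SMAD3, a TGF-beta signal transducer (65.2), and SMAD7, an inhibitor of TGF-beta signalling (197.4), also had 3. MXRA7, DST, AJUBA, SMAD3 and SMAD7 were chosen after their values were seen.

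Beyond the 9 lists, keratins with a member peak were KRT8 (221.7), KRT80 (168.8), KRT7 (121.9) and KRT15 (90.9), and the olfactory receptors were OR14A2 (103.1), OR2C3 (84.9) and OR2F2 (77.5). In the liver fibrosis matrisome, the strongest beside COL16A1 and TGFBI were LAMB2, a laminin chain (303.9), TNXB, a tenascin (234.7), and VTN, which codes for vitronectin (203.6). These genes were likewise chosen after their values were seen.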
